A study of Caenorhabditis elegans with 4 samples.

Results

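The X chromosome of Caenorhabditis elegans carried 4975 of the 30000 regions called for the transcription factor NHR-67 in ChIP replicate 1, 3348 of the 18783 in ChIP replicate 2, and 26 of the 113 in the authors' combined list. Its members were taken by chromosome name alone, at every score. The animals were hermaphrodite larvae of stage L3, grown at 20 °C, of strain OP373. This strain carries the unc119(ed3) mutation and the integrated transgene wgIs373, which holds nhr-67 with TY1, EGFP and FLAG tags and an unc119 copy. It was made by bombardment, and the labels tell neither where it inserted nor in how many copies. Chromatin of whole larvae was precipitated with an antibody against GFP in 2 ChIP samples. The 2 input samples of unprecipitated chromatin, from the same strain and stage, were not analysed here, so no region can be set against a background measured the same way. The labels name no animals without the transgene. They do not tie the replicates to separate cultures, so a difference between replicates, or the spread behind an SD, may be technical.

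NHR-67 is a nuclear receptor related to tailless of flies and TLX of vertebrates, a family that binds DNA and is known mostly for repressing target genes. Worm studies know it best from the anchor cell, a uterine cell of the L3 larva that needs it to stop dividing and to invade, and from a few other small sets of cells. Hermaphrodites carry a pair of X chromosomes, where the dosage compensation complex binds along both and lowers their transcription, and genes used in the germ line are sparse on them. In the RefSeq gene table of assembly WBcel235 nhr-67 itself is on chromosome IV and unc-119 on III, so neither gene of the transgene has its native place on X. Whole larvae mix the few cells that use NHR-67 with many that do not. The lists therefore cannot say in which cells a region was bound.

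A region is a stretch called by the authors. Its peak number, in the deposited region name, follows the score from best to worst closely in the replicate lists. Rank here means the order by that number among nuclear regions, once the mitochondrial ones had been set aside. All X regions of replicate 1 were 404 bp wide, and all but 1 of replicate 2 were 480 bp wide. That exception, of 120 bp, was the X region with rank 1 in replicate 2. Read counts do not come with the lists, so the depth behind a region is unknown. Many regions tie at the highest score of a list, 386 in replicate 1 and 1670 in replicate 2, and among them the rank rests on the peak number alone. This holds for all of the 100 best of either replicate and all of the 1000 best of replicate 2. On X these were 72 in replicate 1 (1.45%, 95% exact binomial interval 1.13 to 1.82), at a score of 2.91, and 311 in replicate 2 (9.29%, 8.33 to 10.3), at 3.53. On the autosomes they were 1.26% and 8.82% of the regions, and over all nuclear regions 1.29% and 8.90%. The X shares did not differ from the autosomal ones beyond counting error (two-sided Fisher's exact test, adjusted over the 20 tests of the report, p = 0.417 and 0.456). Intervals and tests treat regions as independent, which neighbours are not, and cover counting error only. The median score of X regions was 0.227 in replicate 1 and 0.954 in replicate 2, against 0.230 and 0.936 on the autosomes. The scale of the score is not stated, so the values of the lists cannot be set against each other.

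The 26 combined regions are the authors' own choice from these replicates, so their presence in both lists is no independent evidence for them. All 26 met a region of each replicate by at least 50% of the shorter region, as did 79 of the 87 autosomal combined regions. Where several regions of a replicate met a combined region, the best ranked is given. All 113 combined regions tie at a score of 2.82, so their numbering does not rest on differences in the deposited score. The X regions stood early in the combined numbering. They took 7 of the first 10 numbers, 21 of the first 50 and 5 of the other 63, with a median number of 22 on X against 66 on the autosomes. The 7 regions on IV had a median number of 24, so an early place was not particular to X. On the other autosomes the median number ran from 57 on I to 71.5 on II. X regions had a median rank of 32 in replicate 1 and 26 in replicate 2. Autosomal combined regions had 90 and 174, where the last value leaves out those not found in replicate 2. In both replicates at once, 16 of the 26 on X and 12 of the 87 on the autosomes ranked within the 100 best. Of the 7 on IV, regions 16, 18, 22 and 34 were among these. The highest score was reached in replicate 1 by all 26 on X and in replicate 2 by 23 of them. In both lists at once it was reached by 23 of the 26 on X and by 49 of the 87 on the autosomes. The labels do not give the rule that picked the combined regions, and it may rest on these same ranks. No test was therefore made of these figures.

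**Figure D1:**
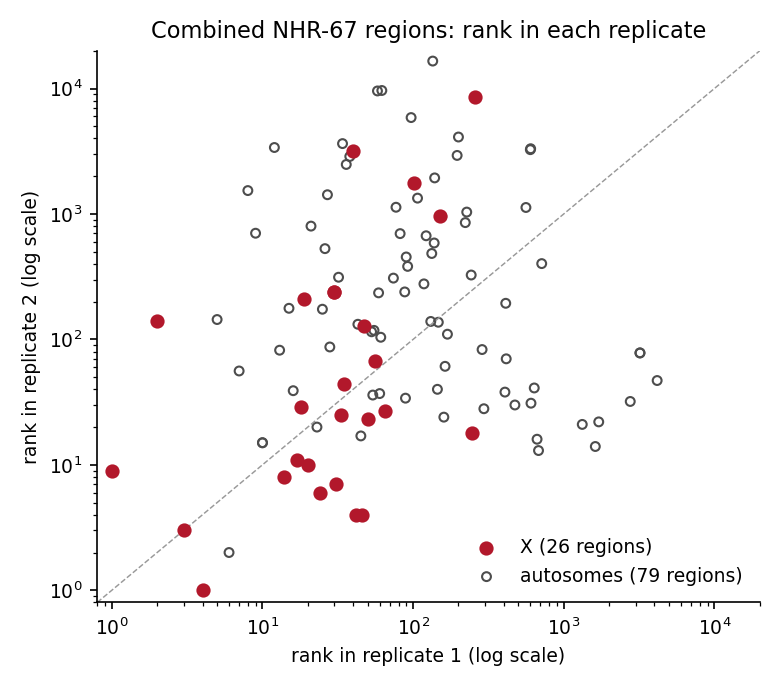
Rank of each combined region in replicate 1 (horizontal, log scale) and in replicate 2 (vertical, log scale), with X regions as filled points, autosomal regions as open circles and equal ranks on the dashed line. Of the X regions 16 fall within rank 100 on both axes, and the highest X point ranks 8558 in replicate 2. The 8 autosomal regions not found in replicate 2 are not drawn, and regions 26 and 80 share a point.

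Positions are 1-based on WormBase build WS220, and the genes at them were not analysed here. The lowest-numbered X regions are given first. Region 4 of the combined list, at X:2996959-2997242, had rank 3 in replicate 1 and rank 3 in replicate 2. Region 1, at X:16056386-16056702, had rank 4 in replicate 1 and rank 1 in replicate 2. Region 3, at X:11093994-11094294, had rank 1 in replicate 1 and rank 9 in replicate 2. In these cases the replicates gave nearly the same place in the list. These regions also tie at the highest score of each list, so this closeness rests on peak numbers alone. Region 5, at X:14525675-14526008, had rank 2 in replicate 1 but rank 141 in replicate 2, with the highest score in both lists. Because many regions of replicate 2 tie at that score, this difference in rank is not a difference in score. Regions 6 and 9, at X:11605696-11605928 and X:11605940-11606087, lie 11 bp apart. They had ranks 42 and 46 in replicate 1, and in replicate 2 their nearest counterparts had ranks 5 and 4. Both replicates thus held a pair of regions at this locus.

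These 6 regions are also the only X regions of the combined list narrower than its commonest width of 590 bp, at 148 to 334 bp. Their combined numbers are the 6 lowest on X, none above 9. On the autosomes 8 combined regions were narrower, and of the first 10 numbers of the whole list 8 were. No source used here gives the authors' rule for the narrower widths.

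From the left end, the first stretch held 5 combined regions. Region 21, at X:806425-807014, had rank 18 in replicate 1 and rank 29 in replicate 2. Region 14, at X:1344718-1345307, had rank 65 in replicate 1 and rank 27 in replicate 2. Region 12, at X:1626836-1627425, had rank 20 in replicate 1 and rank 10 in replicate 2. These 3 were among the 100 best of both lists, while the pair between regions 14 and 12 was not. Region 104, at X:1389268-1389857, had rank 152 in replicate 1 and rank 965 in replicate 2. Region 98, at X:1445653-1446242, had ranks 259 and 8558, with a replicate 2 score of 1.03, the lowest on X among combined regions. In replicate 1 a second region, of rank 1055 and score 1.61, lay exactly under its midpoint, while the better ranked one was 221 bp off. Regions 14, 104 and 98 span 101.5 kb together, the only X stretch with 3 combined regions whose gaps were at most 100 kb.

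Further along the left arm and the centre, the combined regions were single. Region 15, at X:4208930-4209519, had rank 31 in replicate 1 and rank 7 in replicate 2. Region 32, at X:5429236-5429825, had ranks 35 and 44. Region 54, at X:5840864-5841453, stood just outside the 100 best of replicate 1 but had rank 1775 in replicate 2, with a score of 3.08 there, below the highest. On this stretch it was the only combined region so far apart in the lists. Region 10, at X:6296239-6296828, had ranks 17 and 11. The next combined region, 35, at X:8036056-8036645, had ranks 24 and 6. Between these well-ranked sites lay 1739227 bp, the longest gap between neighbouring combined loci on X, where the median was 511401 bp. Region 20, at X:9465550-9466139, had ranks 50 and 23.

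To the right of the centre the combined regions came closer together. Region 78, at X:10568658-10569247, had rank 56 in replicate 1 and rank 67 in replicate 2. Region 46, at X:11031038-11031627, had ranks 19 and 211, and stands 62366 bp left of region 3. Region 23, at X:11937111-11937700, had ranks 33 and 25. Its neighbour 30135 bp away was ranked alike only in replicate 1. That neighbour, region 42, at X:11967836-11968425, had rank 40 in replicate 1 and rank 3191 in replicate 2, with a score of 2.32 there. From region 78 to region 42 there were 7 combined regions at 6 loci within 1.5 Mb. The densest 1.5 Mb on the autosomes held 10 combined regions on III, 7 on II, 5 on I and 3 each on IV and V. This stretch of X was therefore not denser than the densest on II or III.

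The remaining sites lay towards the right end. Region 29, at X:12362862-12363451, had ranks 47 and 128. Regions 26 and 80, at X:13349233-13349822 and X:13349436-13350025, overlap each other and met the same best-ranked region of each replicate, of ranks 30 and 237. The region of replicate 2 nearest to the midpoint of region 80 had rank 14776 and a score of 0.503. The combined list thus held a pair of regions where each replicate had a single well-ranked one. Region 38, at X:13700461-13701050, had rank 245 in replicate 1 and rank 18 in replicate 2, with the highest score in both lists. Region 11, at X:16681743-16682332, had ranks 14 and 8. With the pairs 6 and 9, and 26 and 80, joined, the 26 regions made 24 loci, and 22 combined regions ranked within the 100 best of replicate 1 and 17 within those of replicate 2.

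The midpoint of a combined X region lay a median of 12.5 bp from that of the nearest replicate 1 region and 21.5 bp from that of the nearest replicate 2 region. Across all X regions matched between the replicates, each region used once and nearest midpoints first, the distance between midpoints was larger further down the lists. Pairs in which both regions ranked within 500 numbered 23 on X, with a median distance of 39 bp (quartiles 19.5 and 72 bp), and 14 of them lay within 50 bp. The 433 X pairs with a rank over 10000 had a median of 100 bp (53 and 158 bp), and 24.0% lay within 50 bp. On the autosomes the medians were 43 bp for 46 pairs and 99 bp for 2291 pairs, and 60.9% and 26.0% lay within 50 bp. The rule of 50% overlap allows at most 240 bp between midpoints. At the top of the lists the replicates thus placed matched X regions closer together than further down, and X and the autosomes differed by little beside the quartiles. No test was made of these distances.

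**Figure D2:**
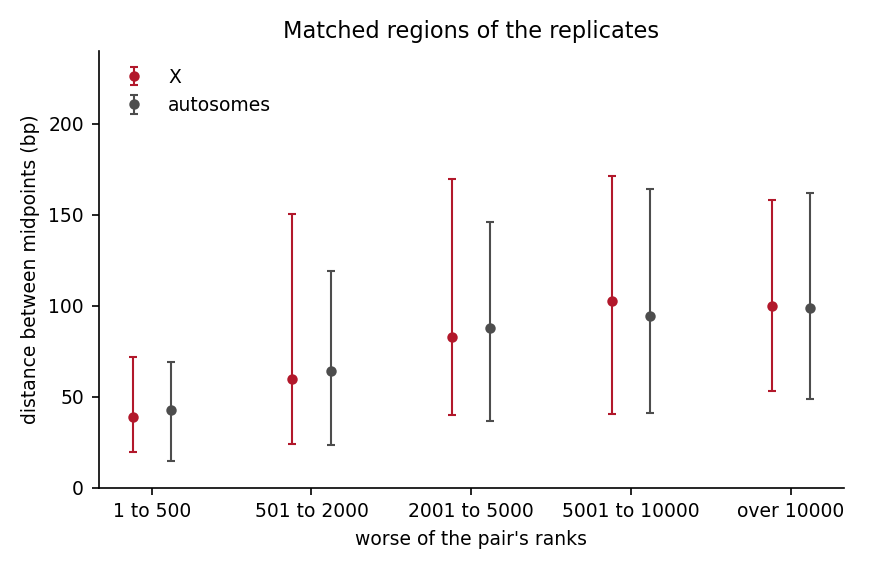
Median distance in bp between the midpoints of matched regions of the replicates, by the worse of the 2 ranks, with X left of the autosomes in each class and bars from the lower to the upper quartile. The X median is 39 bp where both ranks are within 500 and 100 bp over rank 10000.

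Of the 23 X pairs within the 500 best of both lists, 20 were in the combined list, against 34 of 46 on the autosomes. The 3 others on X were outside it. In replicate 1 they lay at X:16209565-16209968, X:6743146-6743549 and X:4388785-4389188. Their ranks in replicate 1 were 173, 206 and 395, and in replicate 2 they were 46, 72 and 184. They were chosen after their values were seen. Across all 572 X pairs the scores of the replicates had a Spearman's rho of 0.19, and over the 480 in which neither score was the highest it was 0.04. On the autosomes these values were 0.15 over 3071 pairs and 0.08 over 2589. These run across regions, which share libraries and are not replicates. Below the highest score, then, the score of an X region in replicate 1 told little of its score in replicate 2.

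How often an X region of either list had a counterpart in the other was then compared with the autosomes. Over all nuclear regions 13.0% of those of replicate 1 and 20.7% of those of replicate 2 had one. X regions ranked at the top were mostly found again, and most of those further down were not. In replicate 1, 21 of the 25 X regions within the 100 best (84%, 63.9 to 95.5) had a counterpart anywhere in replicate 2, against 47 of 75 autosomal ones (62.7%). In replicate 2, 22 of 32 (68.8%, 50.0 to 83.9) had one in replicate 1, against 42 of 68 (61.8%). Between the 100 and the 500 best the X shares were 34.3% in replicate 1 and 33.8% in replicate 2, against 35.8% and 39.2% on the autosomes. None of these 4 differences passed the threshold of 0.05 (two-sided Fisher's exact test, adjusted p = 0.13 and 0.69 for the 100 best, 0.891 and 0.549 for the next). Over rank 10000 the X shares were 10.7% in replicate 1 and 16.6% in replicate 2, against 11.7% and 19.0% on the autosomes (adjusted Fisher's exact p = 0.232 and 0.0867).

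Over the full lists, 597 of 4975 X regions of replicate 1 (12.0%, 11.1 to 12.9) were found in replicate 2, against 3294 of 24999 autosomal ones (13.2%). The difference did not pass the threshold (two-sided Fisher's exact test, adjusted p = 0.0835). Replicate 2 regions covered 8.52% of X and 8.44% of the autosomes. How many regions met by placement alone was not tested, so these shares are not shares of reproduced sites. In the other direction 608 of 3348 X regions of replicate 2 (18.2%, 16.9 to 19.5) were found in replicate 1, against 3270 of 15406 (21.2%) on the autosomes. This share was lower on X (adjusted Fisher's exact p = 0.000625). The lower share was not particular to X. V had 18.2% as well, with 627 of 3440 regions, and the other autosomes ran from 19.9% on IV to 23.6% on I. Against V alone the X share differed by -0.07 percentage points (adjusted Fisher's exact p = 0.95). The list searched was also sparser on both chromosomes. Replicate 1 regions covered 10.9% of X and 10.7% of V, against 11.2% to 12.9% of the other autosomes, and the part of this in the result was not tested. Of the single rank classes, X was lower past the threshold only between the 2000 and the 5000 best of replicate 2, with 17.0% against 22.5% (adjusted Fisher's exact p = 0.0321). That call was lost with an overlap of 1 bp (adjusted Fisher's exact p = 0.373) and with midpoints within 100 bp (0.0516). The full-list call was lost with midpoints within 100 bp as the rule (8.99% against 10.4%, adjusted Fisher's exact p = 0.0516), with the better ranked 50% of each list (12.5% against 14.6%, 0.0867) and in shorter lists. In the 5000 best of each the shares did not differ past the threshold (8.85% against 9.2%, adjusted Fisher's exact p = 0.838). In the 1000 best the X share was higher, at 17.7% against 10.3% (adjusted Fisher's exact p = 0.0457). That excess at the top was known before, so its p is no independent support. All of the 1000 best of replicate 2 tie at the highest score, so this cut rests on the peak number alone. From the side of replicate 1 the shares were 16.7% and 10.3% and did not pass (adjusted Fisher's exact p = 0.0704). Over the 8 alternatives tried for the full-list result of replicate 2 the adjusted Fisher's exact p ranged from 7.35e-06 to 0.95.

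**Figure D3:**
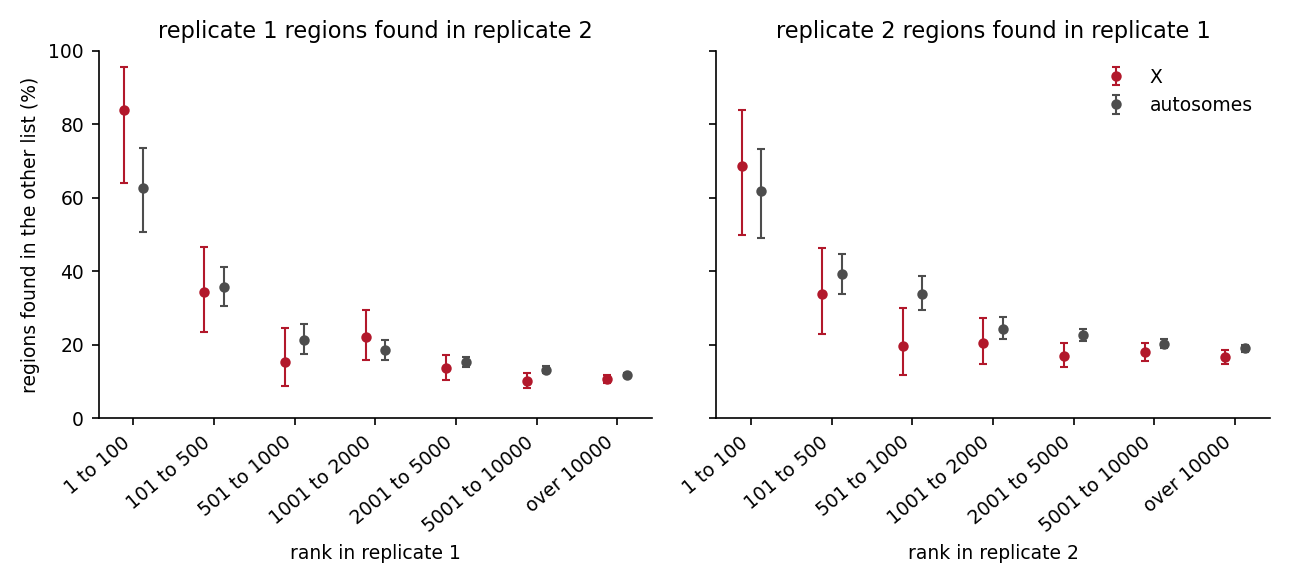
Percentage of regions of each replicate with a counterpart anywhere in the other list, by rank, with X as red points left of the autosomes in grey and bars for 95% exact binomial intervals. The X share is 84% and 68.8% within the 100 best and 10.7% and 16.6% over rank 10000.

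With both lists held to the same size, the X regions met each other more often at the top. Among the 100 best of each, 16 of 25 X regions of replicate 1 (64%, 42.5 to 82.0) had a counterpart among the 100 best of replicate 2, against 13 of 75 autosomal ones (17.3%, 9.57 to 27.8). Among the 500 best the shares were 26.3% on X (17.8 to 36.4) and 13.3% on the autosomes (10.2 to 17.0). At the 1000 best they were 16.7% and 10.3% (adjusted Fisher's exact p = 0.0704, one of 8 alternatives to the full-list comparison of replicate 1, over which it ranged from 0.00409 to 0.946), at the 2000 best 11.8% and 8.13%, at the 5000 best 8.94% and 8.89%, and at the 10000 best 9.2% and 10.4%. So the X share was above the autosomal one up to the 2000 best and close to or below it from 5000 on. Each larger size includes the smaller ones. The 16 X regions met at the 100 best are among the 25 at 500, the 31 at 1000 and the 40 at 2000. The autosomal counts at these sizes were 13, 54, 84 and 135. The shares at 500 to 2000 therefore do not show an excess of their own beyond the 100 best. These sizes overlap and the excess at the top was known before, so at the other sizes than 1000 and 5000, which are alternatives to the full-list comparison, no test was made. Peak numbers alone picked the 100 best of both lists and the 500 and 1000 best of replicate 2 among tied scores. Taken by score, with all ties kept, the share of regions at the highest score did not differ between X and the autosomes past the threshold, as given above.

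The X share of the lists moved in the same way. X made up 17.7% of the span between the first and last called regions of all chromosomes. It held 25 of the 100 best regions of replicate 1 (25%, 16.9 to 34.7) and 32 of those of replicate 2 (32%, 23.0 to 42.1), a mean of 28.5% ± 4.95 (SD, n = 2 replicates). At the 500 best the mean was 19.5% ± 0.71 and at the 1000 best 18.4% ± 0.35 (SD, n = 2 each). From the 2000 best on it was below the span share, with 17.3% ± 0.42 there, 16.5% ± 1.23 at the 5000 best and 17.2% ± 1.26 at the 10000 best (SD, n = 2 each). The interval of replicate 1 at the 100 best includes the span share and that of replicate 2 does not. Further down replicate 1 lay below the span share, at 15.7% of the 5000 best (14.7 to 16.7), 16.3% of the 10000 best (15.6 to 17.0) and 16.6% of the whole list (16.2 to 17.0), with intervals that leave it out. In replicate 2 these shares were 17.4% (16.4 to 18.5), 18.1% (17.3 to 18.9) and 17.9% (17.3 to 18.4), with intervals that include it.

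**Figure D4:**
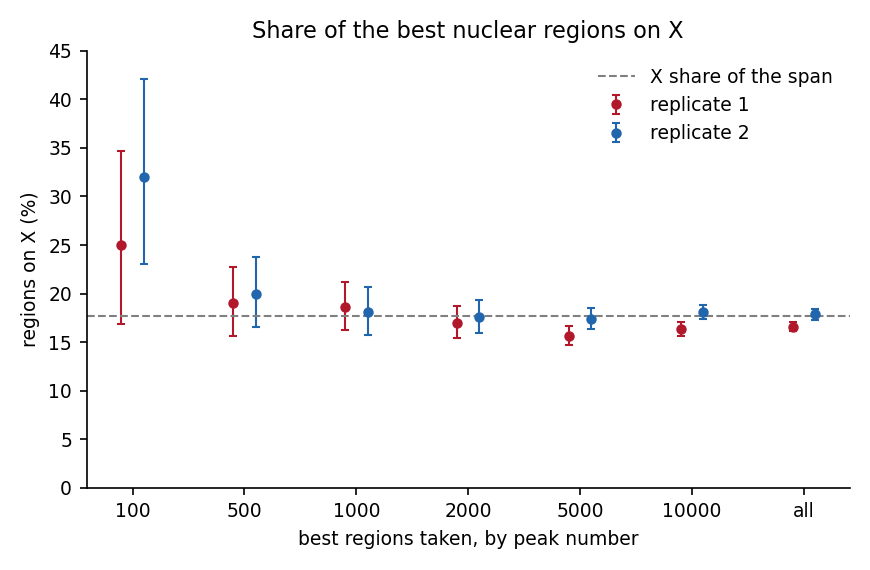
Percentage of the best regions of each replicate that lie on X, by the number of regions taken, with bars for 95% exact binomial intervals and the X share of the span as a dashed line. Replicate 1 falls from 25% at the 100 best to 16.6% over the whole list, and replicate 2 from 32% to 17.9%.

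Some highly ranked X regions of each replicate shared no base with any region of the other. Within the 100 best of replicate 1 these were 2 of 25 X regions, against 23 of 75 autosomal ones, and within those of replicate 2 they were 5 of 32, against 18 of 68. Between the 100 and the 500 best they were 36 of 70 X regions in replicate 1 and 39 of 68 in replicate 2, against 184 of 330 and 158 of 332 on the autosomes. Among the best ranked of replicate 1 was X:15841096-15841499, with rank 73 and the highest score. The nearest region of replicate 2 was 536 bp away and had a score of 0.372. The next, at X:15741710-15742113 with rank 99, had a replicate 2 region of score 1.67 at 242 bp. For the others, at X:13396450-13396853, X:14804667-14805070 and X:8810853-8811256 with ranks 124, 132 and 153, the nearest lay 1830, 599 and 3208 bp away. All 5 had the highest score of replicate 1, and 4 of the 5 lay in the right part of X.

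In replicate 2 the best ranked of this kind was X:4297461-4297940, with rank 35 and the highest score. The nearest region of replicate 1 lay 1310 bp away with a score of 0.0765. The others were at X:14562145-14562624, X:12393764-12394243, X:4590518-4590997 and X:14978514-14978993, with ranks 65, 74, 97 and 100. Their nearest replicate 1 regions lay 119, 2769, 1606 and 278 bp away, with scores of 0.376, 0.0636, 0.185 and 0.300. All 5 had the highest score of replicate 2. The scores of their nearest replicate 1 regions lay on both sides of 0.227, the median of X regions in replicate 1.

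Along X the regions of all 3 lists were spread over its whole length in nearly even shares. With X cut into 3 stretches of equal length, the left, middle and right ones held 34.7%, 32.1% and 33.2% of replicate 1 regions and 33.2%, 32.7% and 34.1% of replicate 2 regions. The combined list had 9, 8 and 9 there. Regions of replicate 1 found in replicate 2 lay somewhat more to the left, with 38.0% (34.1 to 42.1), 30.2% and 31.8%, and those of replicate 2 found in replicate 1 with 37.7% (33.8 to 41.7), 30.9% and 31.4%. These counts were not tested, and they hold the same sites from either side.

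In the 17 complete windows of 1 Mb, replicate 1 had 238 to 328 X regions with a median of 276, and replicate 2 had 138 to 218 with a median of 194. The lowest window of replicate 1 ran from 10 to 11 Mb and its highest from 6 to 7 Mb. In replicate 2 the lowest was the first window and the highest ran from 4 to 5 Mb. The coefficient of variation over windows was 9.66% in replicate 1 and 11.3% in replicate 2, inside the 5.02% to 12.7% and 7.69% to 14.4% of the autosomes. The window counts of the replicates had a Spearman's rho of 0.54 on X, with 0.15 on I and 0.80 on III as the extremes of the autosomes. With windows of 2 Mb it was 0.29 on X, over 8 windows. These values describe windows along shared sequence and carry no p. The share of replicate 1 regions found in replicate 2 was highest from 4 to 5 Mb, at 18%, and lowest from 7 to 8 Mb, at 7.66%. Replicate 2 regions had their extremes in the same windows, at 24.3% and 12.4%. Both directions count nearly the same overlaps, 54 and 53 regions in the first of these windows and 21 and 19 in the second. The match of the extremes is therefore no separate agreement between the replicates. The window from 7 to 8 Mb also held no combined region, like 3 others, while that from 11 to 12 Mb held 6.

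**Figure D5:**
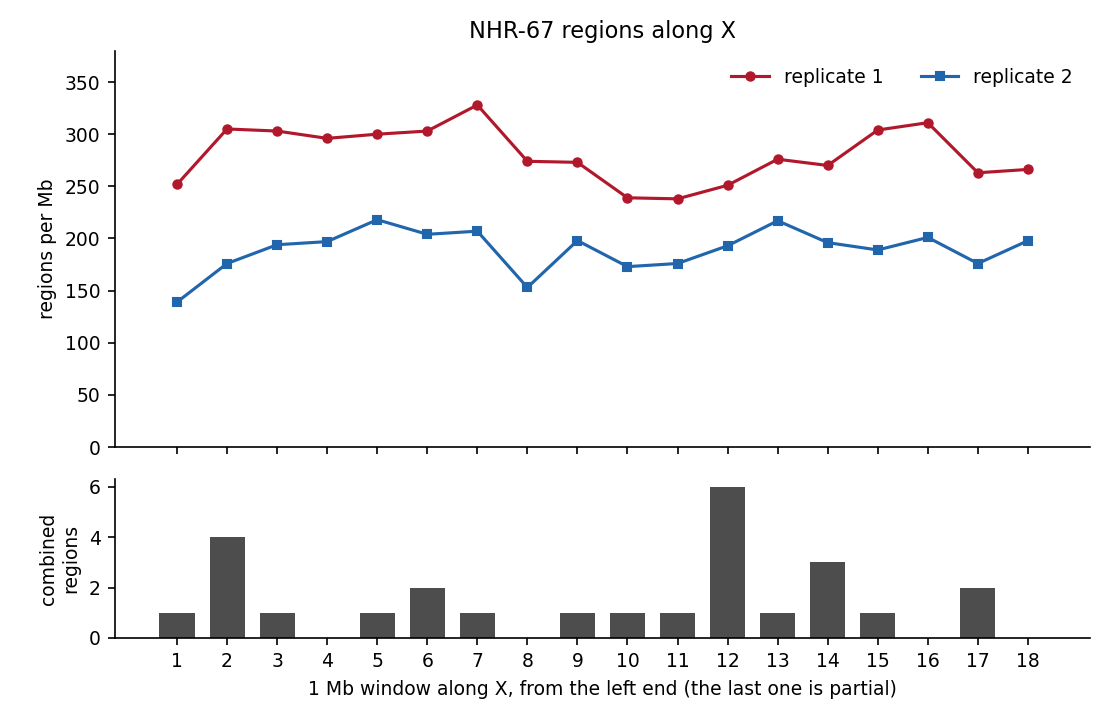
Regions per Mb in 1 Mb windows along X for replicate 1 and replicate 2 (upper panel) and the number of combined regions in each window (lower panel). Replicate 1 lies above replicate 2 in all 18 windows, and the combined regions reach 6 in window 12 and are missing from 4 windows.

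The X chromosome was less crowded than the pooled autosomes in replicate 1 and not in replicate 2. X had 281 regions per Mb in replicate 1 and 189 in replicate 2, against 303 and 187 on the pooled autosomes. Single autosomes ran from 276 on V to 335 on III in replicate 1, and from 164 on V to 214 on III in replicate 2. V was thus sparser than X in both lists. A neighbour within 1 kb stood beside 53.3% of X regions in replicate 1, against 57.6% on the autosomes and 56.9% of all nuclear regions, a difference past the threshold (two-sided Fisher's exact test, adjusted p = 6.83e-07). V again had the same share, 53.4%. How far the neighbour share follows from the density of regions was not tested. Among the 5000 best regions the difference was smaller and did not pass, at 15.1% against 17.1% (adjusted Fisher's exact p = 0.32). Over the alternatives the adjusted Fisher's exact p ranged from 5.49e-11, without V, to 0.938, against V alone. In replicate 2 the shares were 49.2% on X, 47.9% on the autosomes and 48.1% over all, and did not differ past the threshold (adjusted Fisher's exact p = 0.308). Whether the replicates differ in this was not tested.

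Chained over gaps of at most 10 kb, nearly all X regions fell into clusters of 3 or more, with 234 clusters in replicate 1 that held 99.0% of its X regions and 348 clusters in replicate 2 that held 94.95%. On the autosomes the shares were 99.2% and 94.0%. Such chains follow from the density of the lists and mark broad stretches rather than sites. The largest in replicate 1 held 103 regions over 350.7 kb, at X:12711145-13061871, of which 1 ranked within the 1000 best and 14 (13.6%) had a counterpart in replicate 2. Of all 4975 X regions of replicate 1, 186 ranked within the 1000 best and 12.0% had a counterpart. Next came 91 regions at X:990220-1229292, with none in the 1000 best, and 83 at X:4426694-4663023, with 5. The fourth, 80 regions at X:11460032-11681961, held 6 of the 1000 best and the combined regions 6 and 9. The fifth had 79 regions, at X:4698454-4923387, with 1 in the 1000 best. The size of a chain and the ranks in it did not go together in these 5.

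The largest in replicate 2 held 42 regions over 134.2 kb, at X:14490765-14624989, with combined region 5 inside it. It was followed by 41 regions at X:15589858-15705781 and 39 at X:4127385-4247329, which holds combined region 15. The others had 34 regions at X:5108710-5226334 and 30 at X:904853-1028011. None of these 5 overlapped the 5 largest of replicate 1 except the last, whose right end meets the left end of the chain of 91 regions. By size, these 5 stretches also held 43, 39, 34, 40 and 39 regions of replicate 1. Since 99.0% of X regions of replicate 1 lay in such chains, the lack of overlap concerns the 5 largest only.

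With gaps of at most 2 kb the clusters were local, and 50.3% of X regions in replicate 1 and 35.6% in replicate 2 lay in clusters of 3 or more, against 56.0% and 35.5% on the autosomes. The largest of replicate 1 had 20 regions within 14.7 kb at X:6734164-6748847, of which 5 ranked within the 1000 best and 4 had a counterpart. This cluster held the pair at X:6743146-6743549 named above, outside the combined list. The largest of replicate 2 had 17 regions within 13.9 kb at X:11463365-11477234, of which 2 ranked within the 1000 best and 5 had a counterpart. A cluster of 8 regions within 7.54 kb at X:11602791-11610328 in replicate 2 surrounded combined regions 6 and 9. Of its regions 6 ranked within the 1000 best and 5 had a counterpart, the highest share, 62.5%, among the 5 largest such clusters of replicate 2. Over all X regions 12.0% of replicate 1 and 18.2% of replicate 2 had a counterpart. The 1000 best held 186 of 4975 X regions in replicate 1 and 181 of 3348 in replicate 2. No test was made of the counts in single clusters.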

How the data were processed

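ChIP-seq lists of called regions were analysed for 2 ChIP samples, grouped and numbered by their titles, and for the authors' combined list. The labels describe fixation with 2% formaldehyde. The deposited score of each region is the authors', on genome build WormBase WS220 per the file headers. The method field names SPP and IDR. No aligner, tool version, threshold, read depth or score scale is named in the labels or headers. The replicate lists hold regions called per sample.

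Regions were ordered by deposited peak number and mitochondrial regions left out. A region counted as found where the overlap reached 50% of the shorter region. X was set against autosomes I to V with two-sided Fisher's exact tests, Benjamini-Hochberg adjusted over 20 tests, of which 3 passed 0.05. Intervals are 95% Clopper-Pearson. Spans run from the first to the last called region. Named were all combined X regions, the 5 best ranked X regions of each replicate that shared no base with the other list, and the 5 largest 10 kb chains per replicate. The 2 kb clusters and the 3 pairs outside the combined list were chosen after their values were seen. Members and tests were chosen with earlier results of these data known. Scripts used Python 3.11.15, numpy 2.4.6, pandas 2.3.3 and scipy 1.17.1, and the overlap code was tested on simulated data. Alternatives covered the overlap rule, list sizes, window sizes, cluster gaps and reference chromosomes. Sequences and genes at the regions were not analysed, since no genome or annotation of WS220 was used here.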

Additional observations from a re-analysis of the deposited data

How the results depend on the processing

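Values here are X minus autosomes in percentage points unless said otherwise. For regions found in the other replicate, replicate 1 gave -1.18 and replicate 2 gave -3.07. With an overlap of 1 bp replicate 1 gave -1.72, now past the threshold. With midpoints within 100 bp replicate 2 lost its call at -1.43, with the better ranked 50% of each list at -2.08, and with the 5000 best at -0.35. Replicate 1 turned to 0.0474 with the 5000 best and 6.35 with the 1000 best, and replicate 2 turned to 7.42 with the 1000 best. The reference chromosomes were changed after seeing the data. Without V replicate 1 passed at -1.85. Against V alone replicate 1 turned to 1.06 and replicate 2 lost its call at -0.0666.

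The overlap rules by rank were also added after seeing the data. With an overlap of 1 bp, replicate 1 turned to 4.33 between the 100 and 500 best and to -1.80 between the 1000 and 2000 best, and passed at -3.87 between the 5000 and 10000 best. Replicate 2 passed at -17.0 between the 500 and 1000 best and at -3.55 over 10000, and lost its call at -3.02 between the 2000 and 5000 best. With midpoints within 100 bp, replicate 1 passed at 29.3 in the 100 best and turned to -1.13 between the 1000 and 2000 best and to 0.71 between the 2000 and 5000 best, and replicate 2 lost its call at -3.75 in this last class.

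Taking the best 10% in place of the highest score turned the differences to -0.37 and -0.10. For a neighbour within 1 kb, replicate 1 lost its call among the 5000 best at -2.03 and against V at -0.0787, and replicate 2 passed against V at 4.72. Clusters of 3 or more on X numbered 605 at 2 kb, 28 at 20 kb and 74 among the 5000 best in replicate 1, and 93 at 20 kb and 89 among the 5000 best in replicate 2, where fewer regions or other gaps enter by construction. With all nuclear regions as reference, the X share over it was 1.07 at the 1000 best and 1.004 at the 2000 best. The mean coefficient of variation over windows was 14.5% at 0.5 Mb, 8.63% at 2 Mb and 13.8% in the better ranked 50%, and rho was 0.29 at 2 Mb. Apart from fewer or other regions entering by construction, the cause of these changes was not tested. The direction and the call held, or a value without a test stayed within its spread, under 31 planned and 21 added alternatives. Of the other planned ones, 5 reversed the direction, 4 lost a call, 1 gained a call and 11 moved a value without a test. Of the other added ones, 5 reversed the direction, 4 lost a call and 6 gained a call. Without either replicate, the X share over the span share at the 100 best ranged from 1.41 to 1.81, at the 500 best from 1.07 to 1.13, at the 1000 best from 1.02 to 1.05, at the 2000 best from 0.962 to 0.995, at the 5000 best from 0.89 to 0.98 and at the 10000 best from 0.92 to 1.02. Sharing between replicates needs both lists. No paired analysis was possible because only ChIP and input samples share replicate numbers, and the inputs have no list in use here. X was set against the autosomes within each replicate's list.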
